A study of Mus musculus with 4 samples.

Results

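The S-phase progenitors described here were 439 single cells with high histone RNA, out of 6025 eligible cells and 16519 barcodes in all. Eligible cells held at least 5000 UMIs (unique molecular identifiers, 1 per captured RNA molecule) and 1000 genes, at most 10% mitochondrial UMIs, no Cd74 UMI, and under 2 Myog UMIs per 10000. A histone score summed H1f5, H2ac8, H2ac4, H2ac24, H3c3 and H1f1 per 10000 UMIs of a cell. A mitotic score summed Cenpf, Cdc20, Ccnb1, Ube2c, Hmmr, Tpx2 and Aspm in the same way. Cells in the top 10% of the histone score, with all libraries pooled, and outside the top 10% of the mitotic score were taken as S-phase cells. The cells were thus chosen by measured RNA, and the levels of the score genes are a description of the choice.

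The cells came from tibialis anterior muscle of 12-week-old male mice, 6 days after cardiotoxin, a snake toxin that destroys muscle fibers and starts their regeneration. Myogenic progenitors were sorted as negative for CD45, CD31 and Sca1 and positive for α7-integrin. The groups compared were Pax7Cre littermate controls and miR-501KO mice (Pax7Cre, miR-501fl/Y), with 2 libraries each and cells pooled from 3 mice in a library. All mice thus carried the Cre recombinase under the Pax7 promoter, which is not inducible and acts wherever Pax7 is or was expressed, so a change in miR-501KO cells may date from any time since, and cells that never expressed Pax7 keep the miRNA. Replicate 1 of both groups belonged to 1 run and replicate 2 to the other. The p-values below measure the spread between these pooled libraries and not between single mice. Genotype fits with the run as a block are an exception, as their calls below state. Those that leave out 1 library are another, as 1 group then has 1 library. Counts of genes called are not given for them.

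In S phase a cell copies its DNA and needs new histones to package it. Replication-dependent histone genes lie in clusters, are transcribed during S phase, and give short mRNAs that end in a stem-loop in place of a poly(A) tail and are degraded once replication ends. In regenerating muscle, activated satellite cells divide repeatedly before they withdraw from the cycle and fuse into fibers, so S-phase cells belong to the expanding part of the progenitor pool.

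The files held between 73665012 and 117527749 UMIs per library. Pax7Cre S-phase cells had a median of 44042 (replicate 1) and 52922 UMIs (replicate 2) and those of miR-501KO one of 41958 and 48952, which was 1.52 to 1.95 times the median of the other eligible cells of the same library. The miR-501KO replicate 1 library stood apart at the gate on Cd74, where its cells fell from 2722 to 1705, against 3086 to 2767 in Pax7Cre replicate 1. Of the eligible cells, 3 barcode sequences occurred in more than 1 library, and none of these was an S-phase cell. The labels state that doublets were excluded at the sorter, which does not act on droplets that take up more than 1 cell, and no caller was run on the counts. The knockout itself cannot be checked here, since mature miRNAs are not captured by a 3′ poly(A) kit. Clcn5, the chloride channel gene whose intron holds miR-501, reached 132 and 145 CPM (UMIs per 1000000) in Pax7Cre and 149 and 136 CPM in miR-501KO S-phase cells (log2 difference 0.04, SE 0.12, edgeR adjusted p = 0.999).

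Most S-phase cells carried myogenic RNA. The summed level of Pax7, Myf5, Myod1, Cdh15, Itga7, Des and Chodl was 1528, 1431, 1425 and 1473 CPM in the 4 libraries, in the order Pax7Cre replicate 1, Pax7Cre replicate 2, miR-501KO replicate 1, miR-501KO replicate 2, which is kept below. The word progenitor does not cover all 439, as 17 cells held fewer than 2 UMIs of Pax7, Myf5, Myod1 and Cdh15 in sum. At least 30 UMIs of endothelial, mural or Schwann markers were found in 16 cells, 15 of them among those 17. Ncam1 was left out of the Schwann markers for this count, as 87.6% to 100% of the S-phase cells of each library held it. With Ncam1, 31 S-phase cells reached 30 Schwann marker UMIs, and 2 did without it. Macrophage markers were near 0, at 8.04 to 12.0 CPM, against 95.6 to 345 CPM in the other eligible cells. The median of those other cells was still 0 UMIs, and 66 of 4983 held 30 or more. Cells high in the mitotic score alone stood at 78.5, 11.8, 16.7 and 7.92 CPM, with 718 UMIs in 1 cell of the first library.

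The histone score split the eligible cells into a low and a high group. Its median was 0.289 UMIs per 10000, and 77.2% of cells had a score of 1 or less, whereas its 90th percentile was 33.3. Only 59 cells (0.979%) lay between 5 and 10. The limit of 33.3 cut through the high group and not through the gap below it. The lowest score inside was 33.34 and the highest outside was 33.26, and 79 S-phase cells lay within 1.25 times the limit.

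**Figure D1:**
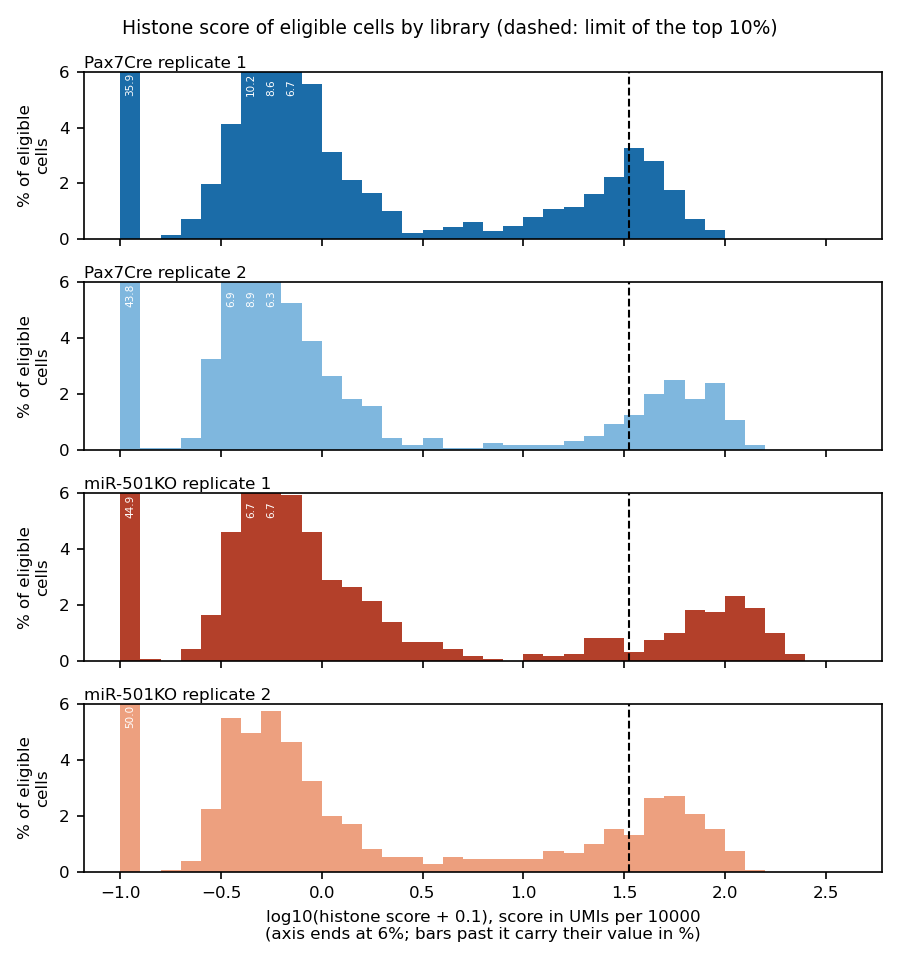
Histone score of the eligible cells in each library, as the percent of cells (y axis) by log10 of the score plus 0.1 in UMIs per 10000 (x axis). The axis ends at 6% and taller bars carry their value. The dashed line is the limit of the top 10%, which has 52.1% of the Pax7Cre replicate 1 cells with a score above 10 on its right but 83.1% of those of Pax7Cre replicate 2.

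The limit did not take the same part of the high group in each library. Cells with a score above 10 made up 15.8%, 13.3%, 13.4% and 15.4% of the eligible cells. Of these, 52.1%, 83.1%, 82.1% and 70.7% were above the limit. Their median score was 33.9, 58.0, 83.5 and 49.0 per 10000. Pax7Cre replicate 1 thus had the most cells with a raised score and the lowest scores among them, and miR-501KO replicate 1 had the highest scores.

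S-phase cells made up 6.23% of the eligible cells in Pax7Cre replicate 1 (131 of 2104, 95% Wilson interval 5.27 to 7.34) and 7.84% in replicate 2 (94 of 1199, 6.45 to 9.50). In miR-501KO they made up 7.34% of replicate 1 (89 of 1212, 6.01 to 8.95) and 8.28% of replicate 2 (125 of 1510, 6.99 to 9.78). These intervals cover counting error only, and the groups overlapped. The means were 7.03% ± 0.807 and 7.81% ± 0.467 (SEM, n = 2 each), which differed by 0.778 percentage points (exact two-sided permutation p = 0.667, where 2 against 2 libraries cannot give less than 0.33). Taken within runs, the miR-501KO share was the higher one by 1.12 points (run 1) and 0.438 points (run 2). The direction rested on Pax7Cre replicate 1, since the difference was -0.0292 points without it. It was also -0.238 points when all cells with a score above 10 were taken, a choice made after the scores were seen.

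The score genes differed in their share of the score between libraries. H1f5, a linker histone, reached 27.7, 19.5, 21.9 and 17.2 UMIs per 10000 in S-phase cells. H2ac24, a core H2A histone, reached 4.82, 27.4, 48.5 and 22.2. H1f5 thus gave 58.1% of the score UMIs in Pax7Cre replicate 1 but 28.6%, 21.3% and 29.5% in the others, and H2ac24 gave 10.1% against 40.1%, 47.1% and 38.2%. H2ac8 reached 8.02, 13.7, 20.2 and 12.5, and H2ac4 reached 2.14, 2.85, 5.44 and 2.20. H3c3 stood at 2.53, 3.04, 4.45 and 2.56, and H1f1 at 2.42, 1.71, 2.29 and 1.53. Pax7Cre replicate 1 was highest for the linker histones H1f5 and H1f1 and lowest for the 4 core histone genes of the score.

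Other replication-dependent histone genes varied between libraries as well. Levels between histone genes are not compared, because the kit primes on poly(A), which most of these mRNAs lack, and because near-identical copies can exchange reads with each other and with the score genes. Of 63 genes listed, 52 had over 3 UMIs in each library's S-phase cells, and these 52 include the 6 score genes that chose the cells. In the 52 genes the highest library exceeded the lowest by a median of 2.83 times, up to 10.05 times for H2ac24, a score gene. In 5426 other genes with at least 20 CPM in each library this median was 1.20 times. That set has a higher floor and is in CPM after TMM scaling, so the 2 medians are not on equal terms. In CPM without TMM scaling, H3c2 stood at 21.4, 52.2, 132 and 34.1, H2ac7 at 4.47, 13.2, 29.6 and 12.0, and H4c3 at 17.3, 18.1, 70.7 and 13.6. H4c9 was even, at 75.2, 74.1, 66.2 and 68.4. The highest library was miR-501KO replicate 1 for 48 of the 52 genes and Pax7Cre replicate 1 for the other 4, among them H1f5 and H1f1 of the score. Both replicate 1 libraries were above both replicate 2 libraries for 30 genes and the reverse held for 0, while both miR-501KO libraries were above both Pax7Cre libraries for 2.

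**Figure D2:**
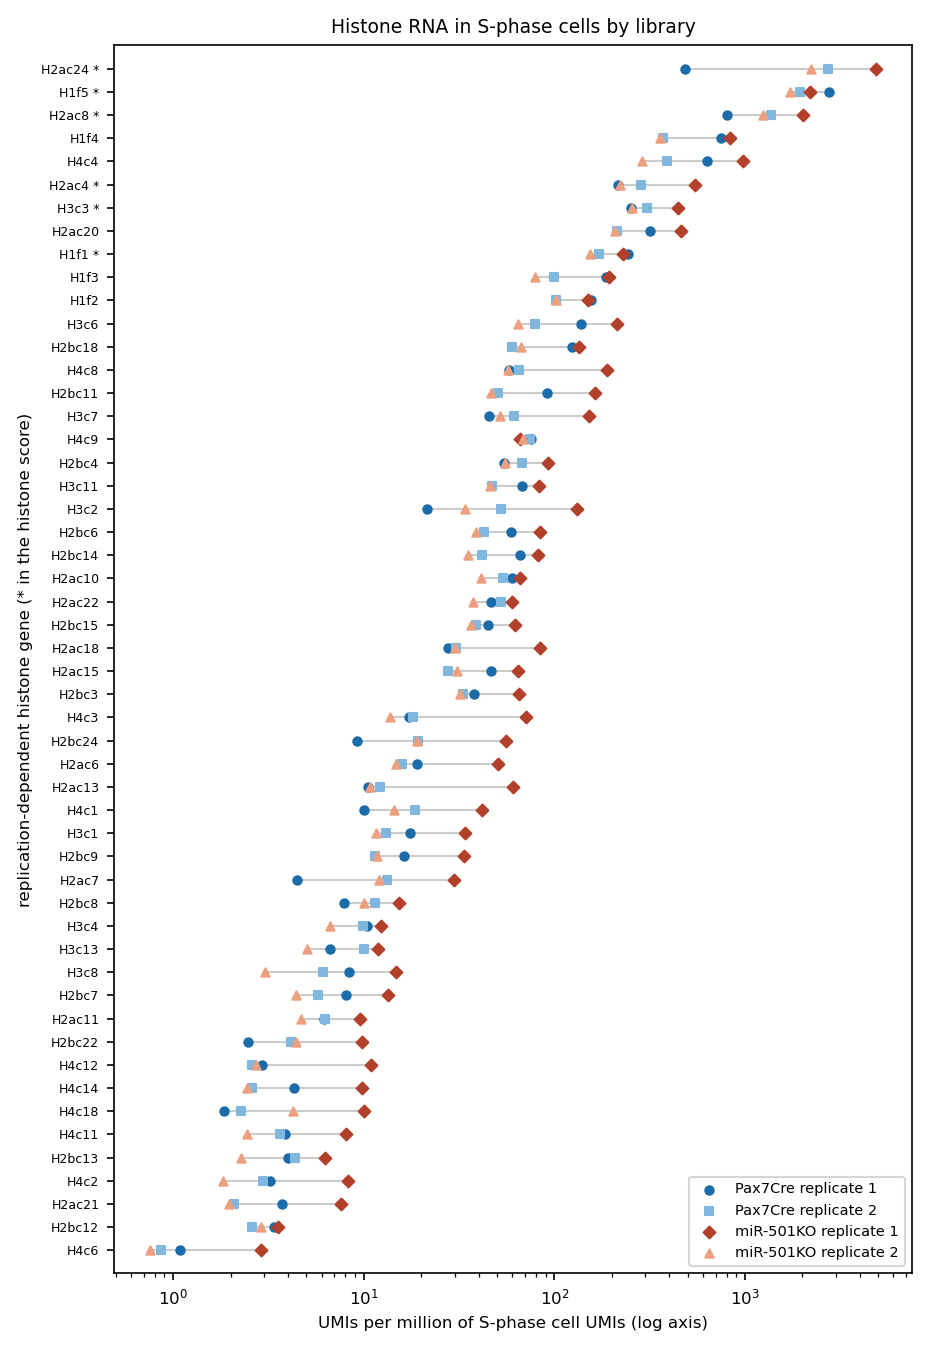
CPM of S-phase cell UMIs without TMM scaling (x axis, log scale) for the 52 replication-dependent histone genes with over 3 UMIs in each library (y axis, ordered by mean; an asterisk marks the score genes). Each symbol is 1 library and the grey line spans the 4; miR-501KO replicate 1 lies farthest right for 48 genes.

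Promoters are printed for linker and core histones that differed in their order of libraries, with others for the motifs. They are RefSeq sequences of the GRCm38.p6 build, 250 bases before to 50 after an annotated start, and the capitals mark matches to a CCAAT box by the letters of its name, to a TATA box by TATAAA, to an octamer (ATTTGCAT) or to an E2F motif (TTTCCCGC, TTTGGCGC, TTTCGCGC or TTTGCCGC) on either strand. H1f5 (chr13:21780576-21780875, minus strand) and H1f1 (chr13:23763418-23763717, plus strand) are the linker histones of the score and H2ac24 (chr13:21833426-21833725, minus strand) is the gene with the widest range. H2bc18 (chr3:96269450-96269749, plus strand) shows the octamer, and Mcm6 (chr1:128359656-128359955, minus strand), a helicase subunit, stands for the replication genes described below.
H1f5: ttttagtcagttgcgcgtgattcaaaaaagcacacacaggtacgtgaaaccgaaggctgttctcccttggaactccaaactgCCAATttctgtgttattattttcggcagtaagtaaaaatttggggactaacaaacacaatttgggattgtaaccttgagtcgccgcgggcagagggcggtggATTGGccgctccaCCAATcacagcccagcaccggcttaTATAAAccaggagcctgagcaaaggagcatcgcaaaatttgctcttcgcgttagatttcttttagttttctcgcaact
H1f1: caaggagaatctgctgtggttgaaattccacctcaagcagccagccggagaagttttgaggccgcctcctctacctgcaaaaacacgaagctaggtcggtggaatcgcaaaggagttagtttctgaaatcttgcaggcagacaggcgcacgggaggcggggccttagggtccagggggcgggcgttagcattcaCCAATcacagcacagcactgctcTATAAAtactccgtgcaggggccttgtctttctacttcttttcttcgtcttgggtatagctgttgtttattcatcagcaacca
H2ac24: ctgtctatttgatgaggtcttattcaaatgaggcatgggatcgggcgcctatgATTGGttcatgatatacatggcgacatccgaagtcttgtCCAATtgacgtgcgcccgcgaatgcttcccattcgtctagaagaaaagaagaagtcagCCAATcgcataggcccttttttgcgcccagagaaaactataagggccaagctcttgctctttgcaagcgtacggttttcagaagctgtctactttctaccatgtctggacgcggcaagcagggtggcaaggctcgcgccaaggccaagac
H2bc18: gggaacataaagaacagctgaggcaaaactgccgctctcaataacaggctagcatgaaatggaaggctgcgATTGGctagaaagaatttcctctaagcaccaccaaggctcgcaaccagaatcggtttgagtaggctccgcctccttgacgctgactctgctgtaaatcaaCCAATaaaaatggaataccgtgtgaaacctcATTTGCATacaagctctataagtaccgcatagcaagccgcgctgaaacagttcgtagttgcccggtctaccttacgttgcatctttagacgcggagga
Mcm6: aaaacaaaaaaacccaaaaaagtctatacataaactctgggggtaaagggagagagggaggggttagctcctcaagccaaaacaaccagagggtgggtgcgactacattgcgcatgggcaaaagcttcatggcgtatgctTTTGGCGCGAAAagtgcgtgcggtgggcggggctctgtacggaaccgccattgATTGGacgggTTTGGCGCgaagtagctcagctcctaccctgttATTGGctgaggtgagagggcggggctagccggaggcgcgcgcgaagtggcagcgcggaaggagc

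Promoters were matched for 57 of the 63 histone genes by symbol, with 58 promoters in all, and some windows of divergent H2a and H2b pairs overlap. A CCAAT box occurred in 86.2% of them, against 37.4% of all 32851 promoters. A TATA box occurred in 58.6% against 13.6%, the octamer in 22.4% against 1.74%, and an E2F motif in 17.2% against 2.26%. By family, the CCAAT box was in 100% of H1, H2a, H2b and H3 promoters but in 27.3% of those of H4. The octamer was in 35.3% of H2a and 46.7% of H2b promoters and in 0% of those of H1, H3 and H4. In 54 promoters of licensing, fork and nucleotide genes the E2F motif occurred in 27.8% and the TATA box in 5.56%. The CCAAT box occurred in 51.9% of these 54, and in 73.7% of those of licensing genes alone. It was also in 77.8% of 27 promoters of G2 and mitosis genes. The cell-cycle homology region (CHR, TTTGAA, not in capitals above) occurred in 66.7% of these 27, against 17.9% of all. Of the histone promoters 44.8% had it, with 40%, 58.8%, 73.3%, 20% and 9.09% for H1, H2a, H2b, H3 and H4. In Mcm6 the E2F matches began at -110, -106 and -47 from the start, the first 2 overlapping. These matches are letters in a window and say nothing of binding.

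S-phase cells were then set against 4983 other eligible cells, which were high in neither score, and against 439 G2/M cells, which were high in the mitotic score alone. The 164 cells high in both were left out. UMIs were summed per class and library and compared in edgeR with the library as a block. The same cells' RNA had sorted them, so the differences describe the classes, and a call says only that a difference exceeded the spread between libraries (Benjamini-Hochberg adjusted p under 0.05). Levels are CPM after TMM scaling and differences are log2 values with their SE. Of 12533 genes tested, 28.6% were called higher and 26.9% lower in S-phase cells than in the other cells. Relative to G2/M cells 16.4% were called higher and 14.2% lower. The 13 score genes, Cd74 and Myog were not tested.

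Of 46 further replication-dependent histone genes tested, 45 were higher than in the other cells (median 4.42) and 45 higher than in G2/M cells (median 3.04), where the median of all genes was -0.02 and 0.00. The remaining 11 listed genes did not pass the filter on low counts. A gene could pass that filter through the S-phase sums alone, and these genes can exchange reads with the score genes. The counts of higher histones are thus a description and no separate support for the choice of cells. H1f4, a linker histone, stood at 792, 385, 836 and 377 CPM in S-phase cells and at 75.2, 18.7, 32.9 and 24.8 CPM in the other cells (4.09, SE 0.18). H1f3 was higher by 5.21 (SE 0.26), H2ac20 by 4.84 (SE 0.28) and H4c4 by 3.91 (SE 0.15). H2bc4 was the exception. It stood at 57.3, 70.0, 93.1 and 57.6 CPM against 69.6, 60.8, 56.7 and 70.7 CPM in the other cells, which overlapped (0.08, SE 0.15, edgeR adjusted p = 0.672).

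The factors that make and hold histone mRNA followed in part. Slbp, which binds the stem-loop of histone mRNAs, stood at 243, 253, 246 and 267 CPM in S-phase cells, 89.6, 79.4, 68.4 and 96.1 CPM in the other cells and 65.7, 56.8, 51.6 and 73.2 CPM in G2/M cells. No S-phase library overlapped with the other classes (1.61, SE 0.07, and 2.03, SE 0.08). The list of histone mRNA processing factors had 8 of 10 tested genes higher than in the other cells and 6 higher than in G2/M cells, among them Eri1, an exonuclease (1.43, SE 0.05), and Nasp, a histone chaperone (1.40, SE 0.08). Lsm10 (-0.19, SE 0.09) and Cpsf3 (0.14, SE 0.07) did not pass.

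Genes that start S phase were higher as a group. Of 17 G1/S cyclins and regulators, 14 were higher than in the other cells and 14 than in G2/M cells. Ccne2, a cyclin that drives entry into S phase, stood at 65.5, 85.2, 86.2 and 83.8 CPM against 17.5, 12.8, 10.1 and 19.6 CPM in the other cells (2.43, SE 0.16) and 5.34, 3.41, 5.94 and 5.19 CPM in G2/M cells (4.02, SE 0.23). E2f1, which activates S-phase genes, was higher by 1.60 (SE 0.10) and 2.81 (SE 0.14), and E2f7, a repressor of the same family, by 3.19 (SE 0.13) and 1.73 (SE 0.15). Ccnd2, a cyclin of G1, was the 1 gene of the list lower than in the other cells, at 3.92, 3.26, 11.0 and 6.68 CPM against 29.4, 22.7, 33.0 and 24.6 CPM (-2.22, SE 0.25).

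All 21 origin licensing and helicase genes were higher than in the other cells (median 1.61), and 19 were higher than in G2/M cells (median 1.62). Mcm6 stood at 189, 180, 186 and 180 CPM, against 77.7, 58.6, 52.2 and 67.2 CPM in the other cells and 39.4, 29.7, 34.7 and 31.9 CPM in G2/M cells (1.53, SE 0.08, and 2.44, SE 0.09). Cdc6, which loads the helicase, was higher by 2.12 (SE 0.16) and 3.22 (SE 0.22). For Mcm6 and Cdc6 the larger difference was to G2/M cells. Dbf4, the activator of the Cdc7 kinase that fires origins, was higher than in the other cells (2.13, SE 0.12) but lower than in G2/M cells (-0.93, SE 0.11).

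All 25 replication fork genes were higher in both comparisons (medians 1.66 and 1.58). Pcna, the sliding clamp, stood at 383, 452, 397 and 448 CPM in S-phase cells, 130, 115, 86.8 and 128 CPM in the other cells and 74.4, 65.7, 59.1 and 86.0 CPM in G2/M cells (1.88, SE 0.09, and 2.57, SE 0.10). Lig1, which joins Okazaki fragments, was higher by 2.20 (SE 0.11) and 2.38 (SE 0.13), and Fen1, which trims them, by 2.20 (SE 0.09) and 1.61 (SE 0.10). The least changed member against the other cells was Timeless, a fork protection factor (0.86, SE 0.09).

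All 10 nucleotide supply genes were higher in both comparisons (medians 2.07 and 1.27). Tk1, thymidine kinase, stood at 211, 197, 183 and 214 CPM against 36.9, 22.0, 13.3 and 28.5 CPM in the other cells (3.06, SE 0.15), and at 86.9, 77.5, 60.8 and 81.0 CPM in G2/M cells (1.42, SE 0.15). Rrm2, a ribonucleotide reductase subunit, was higher by 2.42 (SE 0.12) and 1.20 (SE 0.12). In this list the larger median difference was to the other cells.

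The 14 genes of chromatin assembly and of copying DNA methylation were higher than in the other cells (median 1.50) and 13 of them higher than in G2/M cells (median 1.16). Chaf1b, a subunit of the assembly factor CAF-1, stood at 67.6, 63.5, 60.9 and 67.0 CPM, against 19.1, 14.3, 10.1 and 17.6 CPM in the other cells and 9.13, 5.33, 6.53 and 5.39 CPM in G2/M cells (2.10, SE 0.12, and 3.27, SE 0.16). Hells, a remodeler, was higher than in G2/M cells by 2.27 (SE 0.16), and Dnmt1, the maintenance methyltransferase, by 1.59 (SE 0.07). The 16 checkpoint and repair genes were higher than in the other cells (median 2.40) and 13 higher than in G2/M cells (median 1.13), with Clspn, an adaptor of the checkpoint kinase Chk1, higher by 2.63 (SE 0.15) and 1.65 (SE 0.16).

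Of 11 replication-independent histones and variants, 11 were higher than in the other cells (median 1.08), though less so than the replication-dependent genes. In the comparison with G2/M cells 5 were higher and 3 lower. Cenpa, the centromeric H3, stood at 115, 92.2, 95.8 and 103 CPM in S-phase cells, above 69.4, 33.5, 38.7 and 53.9 CPM in the other cells and below 575, 629, 577 and 647 CPM in G2/M cells (1.08, SE 0.14, and -2.59, SE 0.15). H2az1 was higher by 1.67 (SE 0.08) than in the other cells and did not pass against G2/M cells (-0.07, SE 0.08).

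**Figure D3:**
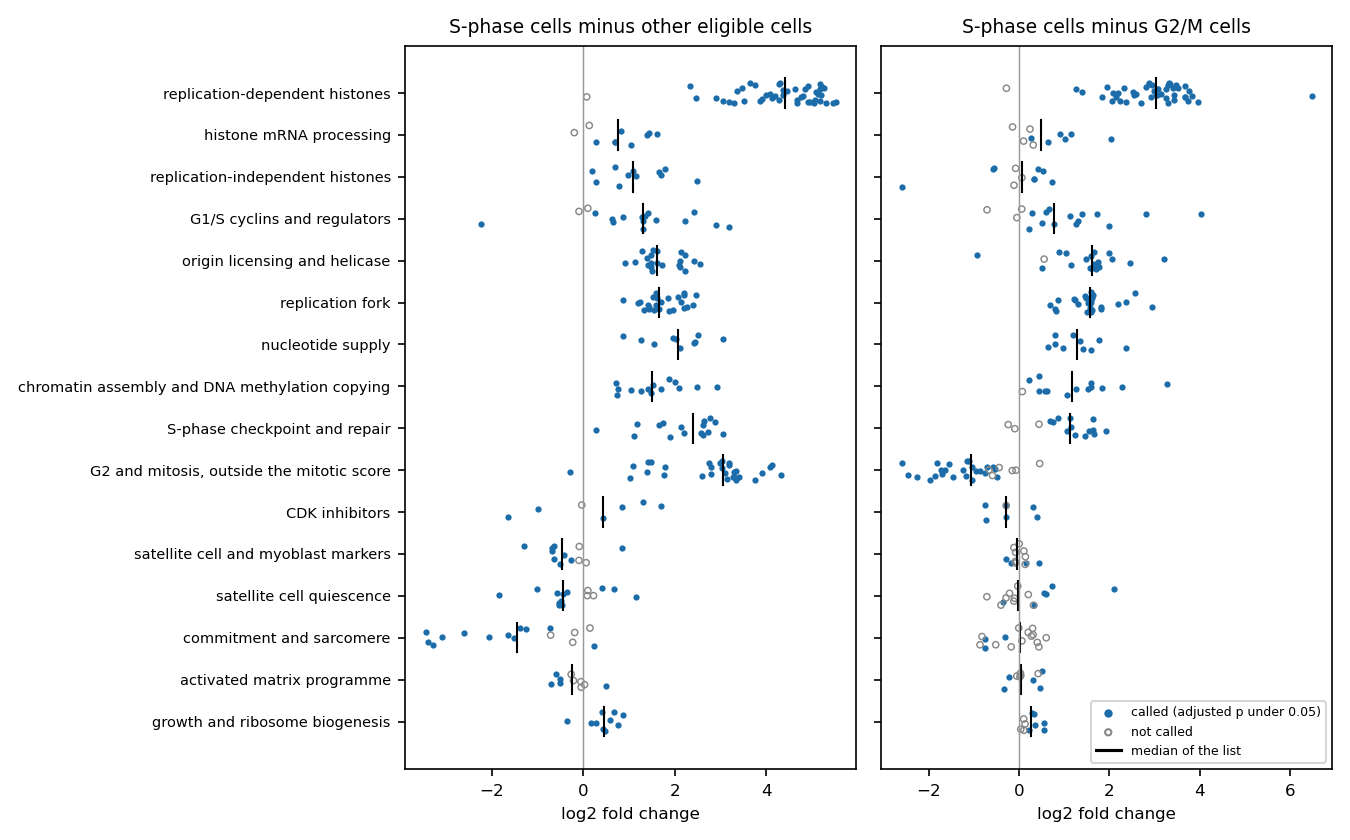
Log2 difference (x axis) of each tested gene in 16 gene lists (y axis), for S-phase cells minus the other eligible cells (left) and minus G2/M cells (right). Each point is 1 gene, filled where called at an adjusted p under 0.05, and the black line is the list's median. G2 and mitosis genes lie right of 0 on the left (median 3.07) and left of 0 on the right (median -1.07), while replication fork genes lie right of 0 in both.

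S-phase cells already carried RNA for G2 and mitosis. Of 30 such genes outside the mitotic score, 29 were higher than in the other cells (median 3.07), and 24 were lower than in G2/M cells with 0 higher (median -1.07). Top2a, the topoisomerase that untangles sister chromatids, stood at 969, 953, 865 and 925 CPM in S-phase cells, 106, 50.1, 34.9 and 67.4 CPM in the other cells and 919, 1121, 903 and 938 CPM in G2/M cells. S-phase and G2/M libraries overlapped for it (-0.07, SE 0.20), while it was higher than in the other cells by 3.91 (SE 0.22). Aurkb, a kinase of the chromosomal passenger complex, was higher than in the other cells by 4.08 (SE 0.28), Kif11, a spindle motor, by 4.14 (SE 0.27), and Nusap1, a spindle protein, by 4.33 (SE 0.29). Genes of mitotic entry were farther below G2/M cells. Ccnb2, a mitotic cyclin, stood at 96.4, 106, 81.7 and 101 CPM against 314, 374, 366 and 340 CPM in G2/M cells (-1.86, SE 0.17), and Plk1, a mitotic kinase, differed by -1.74 (SE 0.23). Esco2, which makes sister chromatid cohesion during replication, stood at 138, 139, 122 and 161 CPM against 14.7, 6.12, 3.32 and 8.11 CPM in the other cells (4.17, SE 0.25). Pttg1, securin, was the 1 gene of the list lower than in the other cells (-0.28, SE 0.10), and it did not pass without either Pax7Cre library or without miR-501KO replicate 2 (-0.17 to -0.28).

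The S-phase cells were also set in order among themselves by the mitotic score, in 3 groups of 146, 146 and 147 cells. Since that score is part of the rule, this is a description with no test. From the lowest to the highest group, licensing genes went from 19.1 to 16.3 to 13.4 UMIs per 10000, and this order held in each of the 4 libraries. Ccne2 went from 0.986 to 0.798 to 0.491, again in each library. Pcna went from 4.66 to 4.34 to 3.09, and Mcm6 from 2.18 to 1.79 to 1.28. G2 and mitosis genes outside the score went the other way in each library, from 31.8 to 48.4 to 63.1, with Cdk1, the mitotic kinase, at 2.45, 3.39 and 3.90 and Cenpa at 0.461, 0.776 and 1.76. Replication-dependent histones outside the score stood at 26.6, 29.6 and 33.5, and were higher in the highest group than in the lowest in each of the 4 libraries. The score genes gave no common order. They went from 94.8 to 106 to 110 in miR-501KO replicate 1, stood at 48.0, 46.4 and 48.0 in Pax7Cre replicate 1, and were highest in the middle group in both replicate 2 libraries. Slbp stood at 2.55, 2.52 and 2.20. Among cells chosen for high histone RNA, licensing RNA was thus highest where mitotic RNA was lowest.

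**Figure D4:**
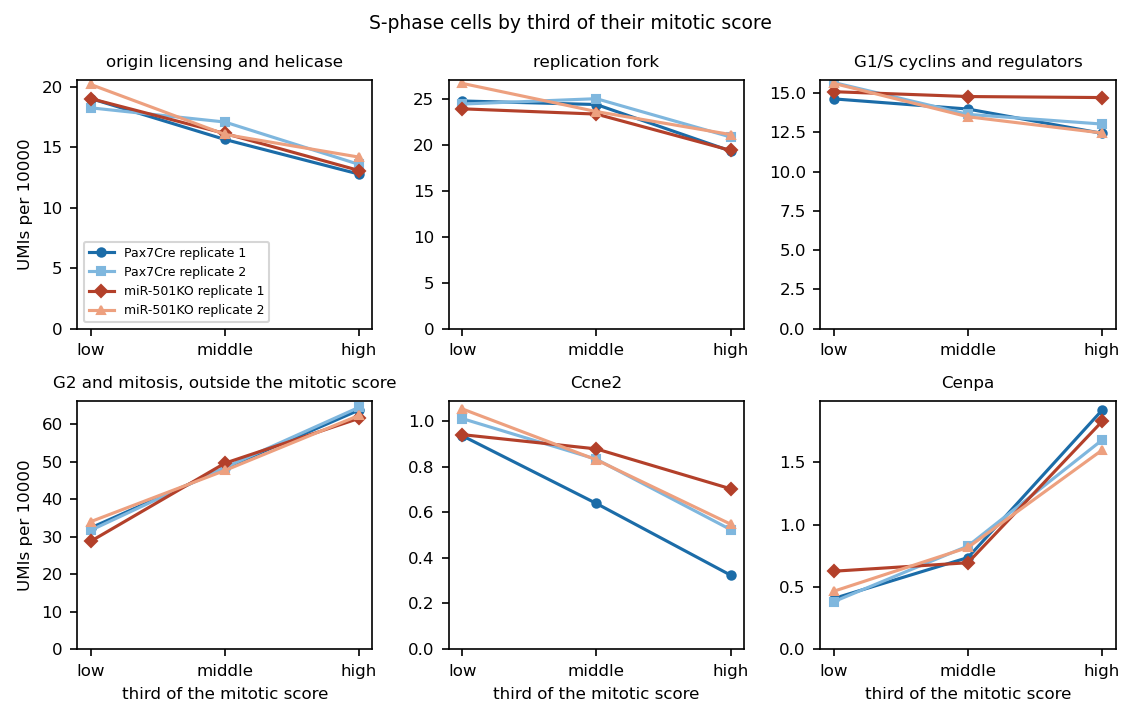
Summed UMIs per 10000 (y axis, from 0) in S-phase cells with low, middle and high mitotic scores (x axis), for 4 gene lists, Ccne2 and Cenpa. Each line is 1 library; origin licensing goes down and G2 and mitosis goes up in all 4.

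Across the 439 cells at an equal depth of 5000 UMIs, the other replication-dependent histones followed the score genes with a Spearman rho of 0.451. These cells share libraries that differ in histone level, and the genes share near-identical sequence. For licensing genes rho was 0.038.

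CDK inhibitors went in different directions. Cdkn1c, which encodes p57 and marks cells leaving the cycle, stood at 247, 294, 116 and 262 CPM in S-phase cells, below 787, 865, 517 and 640 CPM in the other cells without overlap (-1.64, SE 0.16). Cdkn1a, which encodes p21, stood at 157, 233, 196 and 254 CPM, above 98.6, 113, 102 and 151 CPM in the same libraries (0.85, SE 0.06). Cdkn2c (1.70, SE 0.11) and Cdkn2d (1.32, SE 0.08), both inhibitors of CDK4 and CDK6, were higher than in the other cells. In all, 4 of 7 were higher and 2 lower than in the other cells, and 2 were higher and 4 lower than in G2/M cells. Over all genes the shares were 28.6% and 26.9%, and 16.4% and 14.2%, in the same order. With the top 5% of the histone score the counts against G2/M cells were 1 and 1.

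Myogenic identity genes mostly made up a smaller share of the RNA than in the other cells, by small amounts. Counts per cell went the other way in sum. The median was 28 UMIs of Pax7, Myf5, Myod1 and Cdh15 in an S-phase cell against 20 in the other cells. Of 12 satellite cell and myoblast markers, 8 were lower, 1 was higher and 3 did not pass (median -0.47), while with the top 5% of the histone score 5 were lower and 2 higher. Pax7, the satellite cell factor, stood at 69.2, 87.4, 68.0 and 91.9 CPM against 116, 137, 125 and 128 CPM (-0.68, SE 0.06), without overlap. Myod1, the factor of activated myoblasts, was the higher one, at 87.0, 93.0, 50.1 and 77.6 CPM against 39.4, 44.2, 39.5 and 47.3 CPM (0.85, SE 0.13). Chodl had the largest difference in the list (-1.29, SE 0.12). Against G2/M cells 2 were higher, 2 lower and 8 did not pass, close to the shares over all genes (16.4% higher and 14.2% lower). These calls came to 0 to 2 in each direction when 1 library was left out, with Pax7 at -0.08 (SE 0.07) and Myod1 at 0.14 (SE 0.14).

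Of 15 genes of satellite cell quiescence, 9 were lower and 3 higher than in the other cells, but 2 and 5 with the top 5% of the histone score. Notch pathway genes were split, with Heyl (-0.57, SE 0.08) and Notch3 (-0.44, SE 0.08) lower and Hes1 higher (0.41, SE 0.11), although Hes1 did not pass without Pax7Cre replicate 1 (0.25). Cd34 was called higher (1.15, SE 0.45), with 4.57 and 6.15 CPM in Pax7Cre but 32.5 and 34.4 CPM in miR-501KO S-phase cells. It differed by -0.16 (SE 0.19) once the 16 cells with endothelial, mural or Schwann markers were left out, and did not pass without miR-501KO replicate 1 (0.54) or replicate 2 (0.80). Against G2/M cells 5 were higher, 1 lower and 9 did not pass, where 16.4% of all genes were higher and 14.2% lower. The count of lower genes in the list was 0 without Pax7Cre replicate 1 and 3 without miR-501KO replicate 2.

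Commitment and sarcomere genes were lower than in the other cells for 11 of 16 genes, with 1 higher (median -1.44). Acta1, skeletal actin, stood at 49.0, 59.9, 85.7 and 67.3 CPM against 178, 1631, 1219 and 372 CPM (-3.39, SE 0.47), and Ckm, muscle creatine kinase, differed by -3.44 (SE 0.46). Myofiber markers moved with this, since single cells among the other cells held up to 65663 of their UMIs, and their summed level was 165 to 308 CPM in S-phase cells against 505 to 4697 CPM in the other cells, and their part in the result was not tested. Against G2/M cells 0 were higher, 3 lower and 13 did not pass, where 16.4% of all genes were higher and 14.2% lower.

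Of 10 matrix genes of activated progenitors, 4 were lower and 1 higher than in the other cells, with Col3a1 at -0.59 (SE 0.04) and Postn at -0.69 (SE 0.11). Over all genes 26.9% were lower and 28.6% higher. Fibroblast markers, which include Col1a1 and Col3a1, summed to 1314 to 1575 CPM in S-phase cells and 2024 to 2550 CPM in the other cells. Compared with G2/M cells 3 of the 10 matrix genes were higher and 2 lower, where 16.4% of all genes were higher and 14.2% lower. Of 10 growth and ribosome biogenesis genes, 9 were higher (5 with the top 5% of the histone score), with Pa2g4 at 0.87 (SE 0.05) and Ncl, nucleolin, at 0.67 (SE 0.07), while Myc was lower (-0.36, SE 0.10) but did not pass without Pax7Cre replicate 2 (-0.34). Against G2/M cells 6 were higher and 4 did not pass, with 2 higher at the top 5%. Mxd4, a partner of Max that opposes Myc, stood at 36.7, 43.0, 48.1 and 45.2 CPM against 143, 161, 152 and 144 CPM in the other cells (-1.80, SE 0.07). Clcn5 was lower than in the other cells by 0.18 on the log2 scale (SE 0.05).

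The last comparison asked whether loss of miR-501 changed RNA levels within S-phase cells. The rule did not use the genotype, but its limit on the histone score took different shares of the histone-high cells in each library, so histone levels within the chosen cells are conditioned by it. Summed UMIs of the 4 libraries were compared in edgeR, and 99 of 11548 genes (0.857%) were called, all higher in miR-501KO. Counts with 1 library left out are not given, as they would rest on 1 library in a group. In sums over cells, more cells of a type and more RNA per cell cannot be told apart. The 5 genes with the largest difference were Cdh5, Cd93, Emcn, Adgrl4 and Myct1, which are known as genes of endothelial cells. Cdh5, the cadherin of endothelial junctions, had 0 and 0 UMIs in Pax7Cre and 176 and 238 UMIs in miR-501KO S-phase cells. Those of miR-501KO replicate 1 lay in 4 cells and those of replicate 2 in 1 cell, so no fold between the groups is given. Emcn had 0 and 0 UMIs in Pax7Cre and 100 and 68 UMIs in miR-501KO. A gene with 0 UMIs in Pax7Cre could pass the filter on low counts only through the miR-501KO sums.

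Endothelial markers in sum stood at 4.16 and 2.78 CPM in Pax7Cre and 101 and 79.6 CPM in miR-501KO S-phase cells. In miR-501KO they came mostly from 5 cells, 4 in miR-501KO replicate 1 and 1 in replicate 2, each with 79 to 495 UMIs of Pecam1, Cdh5, Kdr and Tek and at most 1 UMI of Pax7, Myf5, Myod1 and Cdh15. The sort was for cells negative for CD31, which Pecam1 encodes. These 5 cells were 2.34% of the miR-501KO S-phase cells. They held a median of 87.9% of the miR-501KO UMIs of the 99 genes and over 50% for 80 of them. Mural markers were also uneven, at 146, 20.3, 479 and 72.6 CPM.

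**Figure D5:**
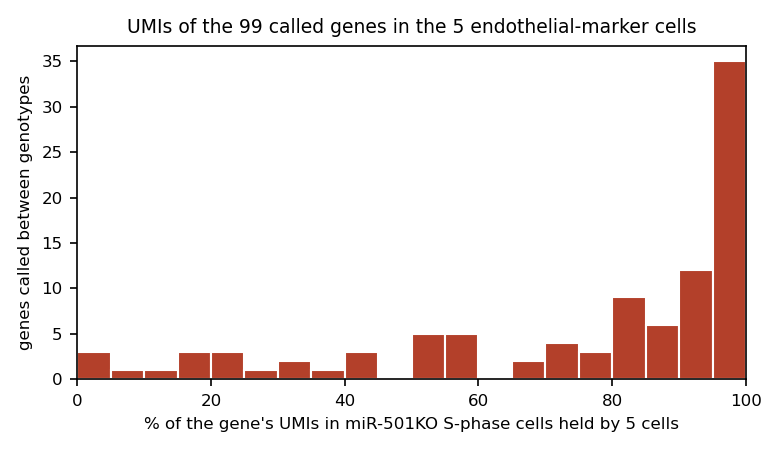
For the 99 genes called between genotypes, the percent of the gene's UMIs in miR-501KO S-phase cells that 5 endothelial-marker cells held (x axis), as a count of genes (y axis). Of the 99, 47 genes had over 90% of their UMIs in these 5 cells.

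Without the 16 cells with endothelial, mural or Schwann markers, 2 of 11347 genes (0.0176%) were called in edgeR, while 346 had an unadjusted p under 0.05. This alternative was chosen after the genes were seen. Counts with 1 library left out as well are not given, for the same reason as above. Cxcl2, a chemokine that draws neutrophils, stood at 13.01 and 13.3 CPM in Pax7Cre and 28.5 and 35.3 CPM in miR-501KO (1.29, SE 0.17, edgeR adjusted p = 0.0146). Its UMIs lay in 28, 22, 24 and 35 S-phase cells of the full set. The highest cell of each library held 17 of 82, 27 of 77, 44 of 188 and 93 of 254 Cxcl2 UMIs. A second cell of miR-501KO replicate 2 held 52. The highest cell of miR-501KO replicate 1 had 38207 UMIs in all, the same total as an endothelial-marker cell left out of this fit. Ccl5, a chemokine of T cells and macrophages, stood at 1.12, 1.38, 9.75 and 34.7 CPM (4.19, SE 0.54, edgeR adjusted p = 0.0146). Of its UMIs, 41 of 41 in miR-501KO replicate 1 and 189 of 219 in replicate 2 lay in 1 cell each. With the run as a block, which the labels support as the pairing, 281 genes were called in all S-phase cells and 34 without the 16 cells. Fitting both run and genotype to 4 sums leaves little spread between libraries to estimate, so the calls with the block are a description.

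For genes of S phase the outcome depended on the run block. The 6 genes of the histone score are left out here, since the rule used them. In the lists of other replication-dependent histones (45 tested), licensing (21), fork (25), nucleotide supply (10), chromatin assembly (14), checkpoint (16), G1/S (17) and G2 and mitosis (30), 0 genes were called in edgeR without the block, with or without the 16 cells. At an unadjusted p under 0.05 there were 12 of these 178 genes, 8 of them histones, against 636 of all 11548 genes. Without the 16 cells there were 16 of the 178, 13 of them histones, against 346 of all 11347. DESeq2 called 0 of 189 and had 2 at an unadjusted p under 0.05, against 79 and 315 of all 16882 genes. When the run was a block, and 2.43% of all genes were called, 11 histones and Ccnd2 were called, and without the 16 cells, where 0.3% were called, 9 histones and no other gene of these lists. All 11 histones were higher in miR-501KO in run 1, while 9 of them were lower in run 2. H3c2 stood at 21.9 and 127.8 CPM in run 1 (Pax7Cre, then miR-501KO) and at 52.3 and 34.4 CPM in run 2 (0.96, SE 0.17, edgeR adjusted p = 8.5e-07 with the block). That p-value does not measure the spread between runs, since H3c2 went opposite ways in them. Its difference with no block was 1.11, and -0.096 without miR-501KO replicate 1. In the licensing, fork, nucleotide, chromatin and checkpoint lists 0 genes were called with the block either. There 1 gene, Rpa1, had an unadjusted p under 0.05, against 759 of all 11548 genes.

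Medians of the replication lists lay between -0.07 and 0.05, against 0.29 for the 45 histones, 37 of which had a positive difference. The library highest for most histones, miR-501KO replicate 1, is 1 of the 2 libraries behind the latter. H1f4 stood at 763, 371, 808 and 363 CPM in this fit (0.04, SE 0.35), so that the difference between replicates was larger than that between genotypes. In the quiescence list Cd34, Id1 and Id3 were called in all S-phase cells, as were Myl1 and Mylpf, light chains of muscle myosin, in the commitment list, and 0 genes of either list without the 16 cells. With the run as a block Id3, Myl1 and Mylpf were called without these cells. On simulated counts of this size the genotype test recovered 68.2% of genes changed 2-fold and 93.9% of those changed 4-fold. It also called 15 unchanged genes beside 133 changed 2-fold, and 7 beside 185 changed 4-fold.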

How the data were processed

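Single cells of 4 libraries were analysed. Per the labels they were 10x Genomics 3′ libraries. The files the authors deposited hold, per barcode and gene, UMI counts with no normalization. Per the file headers these came from Cell Ranger 6.0.2, another version than the methods name. The submitters' processing notes name the GRCm39 build and Seurat. Annotation and filters before deposit are not given in the sources used here. All libraries listed the same 25827 genes.

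The members, the gene lists and the tests were chosen with earlier results of these data known. UMI counts were summed over cells per library and class, and the sums were filtered with filterByExpr, scaled by TMM and tested with the quasi-likelihood test of edgeR 4.0.16 (Benjamini-Hochberg adjusted p under 0.05) with limma 3.58.1 in R 4.3.3. The class fit used 12 sums with the library as a block, and the genotype fit used 4 sums with no block. The 15 genes of the rule were left out of the class tests. Shares of cells were compared by an exact permutation test in scipy 1.17.1, with Wilson intervals. Levels per library in the plots of histones are CPM without TMM. Named were members of the gene and marker lists, the score genes, and, per class comparison and direction, the 10 largest called differences among genes with a mean of at least 50 CPM and 1 direction in all libraries. For the genotype test at most 5 per direction were named.

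The labels put libraries of the same number in 1 run, which pairs them. As a check, the correlation between both groups in how replicate 1 differed from replicate 2 was 0.129 over 11548 genes. No library was a copy of its replicate, with a chi-square over its degrees of freedom of 6.40 in Pax7Cre and 9.40 in miR-501KO. The class tests recovered 86.3% and 79.5% of genes changed 2-fold in simulated counts for the comparisons with the other cells and with G2/M cells. They also called 17 unchanged genes beside 170 changed ones, and 11 beside 159, in the same order. Promoters were RefSeq entries of GRCm38.p6 and were matched by symbol.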

Additional observations from a re-analysis of the deposited data

How the results depend on the processing

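The share of S-phase cells was higher in miR-501KO by 0.144 to 1.96 percentage points under the other alternatives tried, but not without Pax7Cre replicate 1 (-0.0292, with 1.58 at the other end of the range over left-out libraries), with a histone score above 10 (-0.238), or with the top 10% taken in each library (-0.366, where the limit itself sets the share). Genes called between genotypes numbered 99, and 0 with the top 5% of the score, 2 with the top 20%, 1 without the 5% of cells with the most UMIs, 3 with cells of at least 2 myogenic UMIs, 3 with a score above 10, 2 without endothelial, mural and Schwann marker cells, and 317 with no filter on low counts. With the replicate block there were 281, and 34 when those marker cells were left out too. The range over left-out libraries was 75 to 250, and 0 to 133 without the marker cells. There were 78 with cells thinned to 5000 UMIs, 117 with no mitochondrial limit, 131 with the top 10% in each library, 102 with RLE scaling and 79 in DESeq2. The score above 10, the top 10% in each library and the removal of marker cells, alone and with the block, were chosen after seeing the data. The cause of these shifts was not tested.

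Genes called against the other eligible cells ranged from 4817 to 7695 (main value 6945) and against G2/M cells from 2574 to 4500 (main value 3826), each within 1.5 times. Of 1088 recomputed counts of list members called, 990 stayed within 1.5 times. With the top 5% of the score, quiescence genes went from 9 lower and 3 higher to 2 and 5 against the other cells, growth genes from 9 to 5 higher, and CDK inhibitors from 4 to 1 lower against G2/M cells. Of 1457 recomputed single gene values, 1336 kept their direction and side of the threshold, 83 lost the call, 15 gained it and 23 changed sign. The sign changes against the other cells were Cpsf3 with the top 5% (-0.0025) and without the most UMIs (-0.012), Cd34 without marker cells (-0.16) and H2bc4 over left-out libraries (-0.12 to 0.19). Against G2/M cells they were Top2a (0.097) and Pax7 (0.22) with the top 5%, and Myod1 over left-out libraries (-0.035 to 0.33). Between genotypes they were H1f4 with the top 5% (-0.068) and the top 20% (-0.024), and Cd34 with cells of at least 2 myogenic UMIs (-0.20) and without marker cells (-0.12, also with the block at -0.12). Over left-out libraries, with or without marker cells, the genotype difference ranged from -0.027 to 0.23 for Clcn5, from -0.64 to 0.68 for H1f4, from -0.099 to 1.86 for H3c2 and from -0.30 to 2.86 for Cd34. With 2 libraries a group, of 89 to 131 S-phase cells each, the genotype test recovered 68.2% of genes changed 2-fold in simulated counts, so changes of that size can be missed. It also called 15 unchanged genes there, so single calls can be false.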
